A study of Homo sapiens with 30 samples.

Results

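MEIS, PBX and PKNOX proteins are the cofactors with which HOX proteins bind DNA, and the peaks of the Polycomb proteins RNF2 and RING1 at 8 of their genes (MEIS1, MEIS2, MEIS3, PBX2, PBX3, PBX4, PKNOX1 and PKNOX2) are described here. The genes were taken by name from the 20037 protein-coding genes of chromosomes 1 to 22, X and Y, and a peak was counted for a gene when it overlapped the gene body or the 2 kb beyond either end by at least 1 bp, with all coordinates in build hg38. The peaks come from CUT&RUN, in which an antibody tethers a nuclease to a chromatin protein so that the DNA around it is released and sequenced. The cells were wild-type neural progenitors, cultured as a monolayer and derived from the established human embryonic stem cell line H9, and the libraries were made with an antibody against RNF2 or against RING1, 2 libraries each. The peak lists fall into a pair with 1 RNF2 and 1 RING1 list each, called set A and set B here, and the numbers that mark the lists are not matched by the labels to replicate 1 or 2, or to separate cultures. All other libraries of the 30 in the series, IgG and edited genotypes included, were not analysed here. Peak lists hold no measure of expression, so the labelled cell type could not be checked against marker genes.

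These proteins belong to the TALE class of homeodomain proteins, named for extra residues in a loop of the homeodomain. PBX proteins pair with HOX proteins and raise their choice of DNA sites, while MEIS and PKNOX proteins (the PKNOX proteins are also called PREP) bind PBX and help to keep it in the nucleus. RNF2 and RING1 are the paralogous ubiquitin ligases of Polycomb repressive complex 1 (PRC1), which marks histone H2A with a single ubiquitin and is found at many CpG-rich promoters of developmental genes that are silent in a given cell.

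The promoters of 5 of the genes are shown because they span the range of what was found, from peaks in 3 lists to none. Each line gives the 250 bases before an annotated transcript start, 5′ to 3′ on the strand of the gene, taken from RefSeq (assembly GRCh38.p14, the build named hg38), with CpG dinucleotides in capitals. MEIS1 (chr2:66434875-66435124, plus strand), MEIS2 (chr15:37099107-37099356, minus strand) and PKNOX1 (chr21:42974312-42974561, plus strand) lay under the RNF2 peaks of both sets and the RING1 peak of set A. PBX4 (chr19:19618688-19618937, minus strand) lay under a RING1 peak of set A alone, and PBX2 (chr6:32190203-32190452, minus strand) under no peak.
MEIS1: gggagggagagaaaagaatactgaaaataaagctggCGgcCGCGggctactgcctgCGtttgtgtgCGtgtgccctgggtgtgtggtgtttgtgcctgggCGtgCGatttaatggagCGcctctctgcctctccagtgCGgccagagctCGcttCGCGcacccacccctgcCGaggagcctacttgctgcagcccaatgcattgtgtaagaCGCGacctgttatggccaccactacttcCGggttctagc
MEIS2: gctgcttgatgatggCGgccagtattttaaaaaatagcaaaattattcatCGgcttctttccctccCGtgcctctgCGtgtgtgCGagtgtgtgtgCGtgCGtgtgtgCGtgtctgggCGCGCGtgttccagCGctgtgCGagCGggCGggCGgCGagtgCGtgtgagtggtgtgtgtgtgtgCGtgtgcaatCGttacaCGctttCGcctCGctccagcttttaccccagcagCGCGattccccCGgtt
PKNOX1: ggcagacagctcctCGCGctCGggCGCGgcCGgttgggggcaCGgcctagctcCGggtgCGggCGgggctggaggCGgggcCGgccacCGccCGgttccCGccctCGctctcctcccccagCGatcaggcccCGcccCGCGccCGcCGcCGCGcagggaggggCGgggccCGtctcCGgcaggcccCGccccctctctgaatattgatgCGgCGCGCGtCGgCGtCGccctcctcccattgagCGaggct
PBX4: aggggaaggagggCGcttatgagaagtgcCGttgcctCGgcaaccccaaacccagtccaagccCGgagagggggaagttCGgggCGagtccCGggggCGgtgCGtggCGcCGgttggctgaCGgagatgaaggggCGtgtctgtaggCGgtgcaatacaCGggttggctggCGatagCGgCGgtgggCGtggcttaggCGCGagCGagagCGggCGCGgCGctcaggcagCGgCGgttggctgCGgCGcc
PBX2: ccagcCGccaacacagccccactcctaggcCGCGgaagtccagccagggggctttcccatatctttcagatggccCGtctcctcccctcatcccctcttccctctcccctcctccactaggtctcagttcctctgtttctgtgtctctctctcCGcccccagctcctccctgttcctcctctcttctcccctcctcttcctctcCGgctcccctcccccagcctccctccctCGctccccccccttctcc

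The table of promoters held 9 promoters for 7 of the 8 genes and none for PKNOX2. The 6 promoters that lay under at least 1 peak had 13 to 36 CpG dinucleotides. They were the promoters printed for MEIS1 (16), MEIS2 (26), PKNOX1 (36) and PBX4 (30), a further MEIS2 promoter (13) and the PBX3 promoter (36), which lay under the RNF2 peak of set A alone. The 3 promoters under no peak had 7 (PBX2) and 9 and 7 (the MEIS3 promoters). Among 22199 promoters of protein-coding genes the median was 16. Of all promoters with 13 to 36 CpG dinucleotides, 70.9% lay under an RNF2 peak of set A, against 27.0% of those with 7 to 9. For RING1 of set A, the 1 list over the PBX4 promoter, the shares were 54.2% and 16.1%. Both ranges were taken from the 9 promoters, split by whether they lay under a peak. The 9 promoters therefore cannot test that order. The ratio of observed to expected CpG was 1.22 at the printed MEIS2 promoter, at or above 99.3% of all promoters, 0.723 at MEIS1 and 0.421 at PBX2. TGACAG, the core motif of MEIS and PKNOX proteins, was present on either strand in 1 of the 9 windows (PBX3), where 12.1% of all windows hold it. TGATTGAT and TGATTTAT, motifs of PBX and HOX pairs, were present in 0 and 1 (the second MEIS2 promoter) of the 9, against 0.315% and 0.559% of all windows. These motifs do not contain each other.

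Of the 8 genes, 7 had a peak in at least 1 list, as did 64.7% of all protein-coding genes. RNF2 of set A was at 6 of the 8, against 60.7% of all genes, and RING1 of set A at 6, against 50.5%. RNF2 of set B was at 5, against 25.2%, and RING1 of set B at 1, against 1.58%. The 1 gene with RING1 in set B was MEIS2, which was in all 4 lists; 1.52% of all genes were in all 4, and 1.57% had RING1 in both sets. MEIS1, PBX3, PKNOX1 and PKNOX2 were in the same 3 lists, all but RING1 of set B, so that without set B 5 genes were in both remaining lists. MEIS3 had RNF2 of set A alone, PBX4 had RING1 of set A alone, and PBX2 had no peak, as 35.3% of all genes. RNF2 was thus in both sets at 5 genes, against 23.9% of all genes. Long genes meet more peaks, and MEIS1, MEIS2, PBX3 and PKNOX2 are longer than 100 kb. All 4 had RNF2 of both sets and RING1 of set A, while MEIS2, with RING1 of set B too, was the 1 gene in all 4 lists. Of the 3356 protein-coding genes of at least 100 kb, 79.1% had RNF2 of set A, 65.9% RING1 of set A, 36.7% RNF2 of set B, 1.88% RING1 of set B, 34.2% RNF2 of both sets and 1.76% all 4, and 15.2% had no peak. The counts are descriptions without a test, since the 8 genes were chosen with earlier results of these data known. RNF2 and RING1 lists were not tested against each other either. A two-sided exact permutation test of 2 lists against 2 cannot give a p below 0.333. Over all these chromosomes, the RNF2 lists held 16263 (set A) and 5901 (set B) peaks and the RING1 lists 12891 (set A) and 659 (set B). Read depth is unknown, so a gene without a peak in set B, and in RING1 of set B above all, was not shown to lack the protein.

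**Figure D1:**
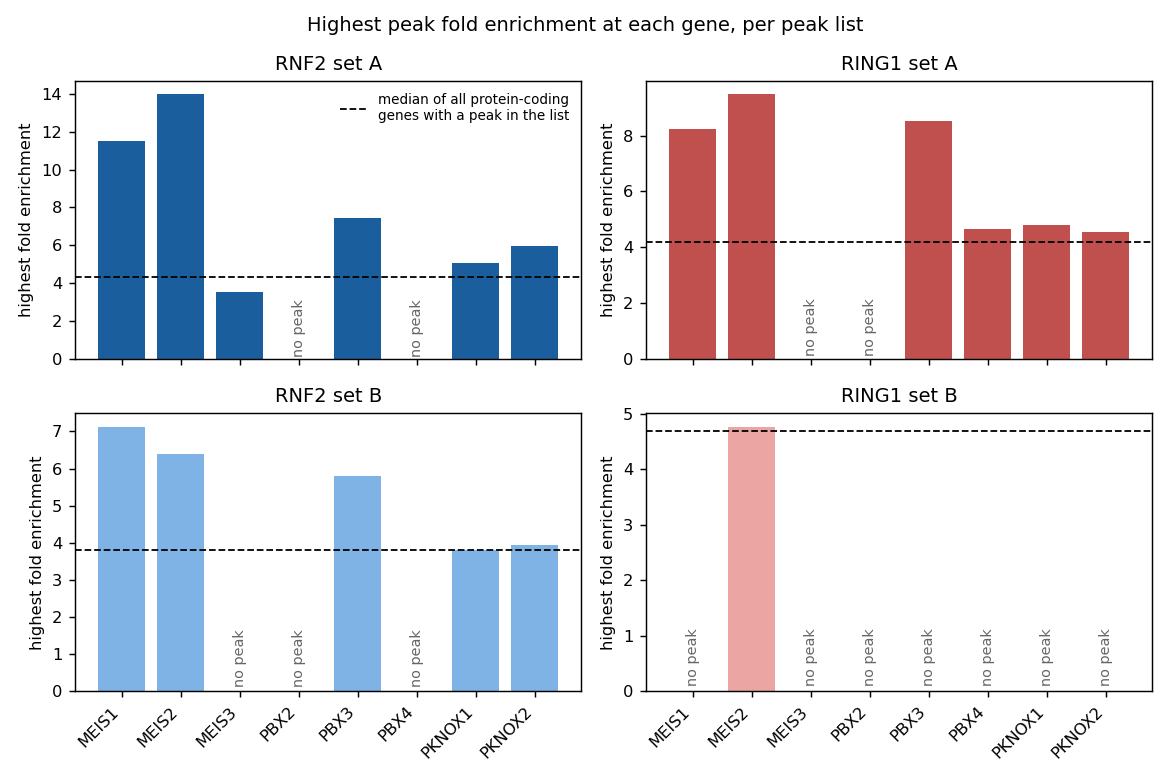
Highest fold enrichment of any peak at each of the 8 genes, as the authors' peak caller gave it, in 1 panel per peak list (1 library each, so no error bar). The dashed line is the median of the same value over all protein-coding genes with a peak in that list; MEIS1, MEIS2, PBX3 and PKNOX2 stand above it in both RNF2 lists and in RING1 of set A, and in RING1 of set B only MEIS2 has a peak, at 4.77 beside a median of 4.68.

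The fold enrichment of a peak is the authors' own value, a ratio of signal over background, and is read here within 1 list at a time. Among the genes with a peak, the median of the highest fold enrichment was 6.71 at the 6 members and 4.35 at all 12160 genes for RNF2 of set A, and 6.52 and 4.20 for RING1 of set A. For RNF2 of set B it was 5.80 at the 5 members and 3.81 at all 5056 genes. The highest value is taken over all peaks of a gene, and this comparison was not matched for gene length or number of peaks. The members with a peak had a median of 4.5 peaks in RNF2 of set A and 3 in RING1 of set A. The median was 1 at all genes with a peak, and also at those of at least 100 kb. In RNF2 of set B it was 1 in each of these groups. The members differed widely among themselves, as the plot of the highest fold enrichment per gene shows. In every list with more than 1 member, MEIS1, MEIS2 and PBX3 had the 3 highest values. This order rests on peaks that reach beyond the window. With at least 50% of a peak required inside it, the highest value fell to 5.71 for MEIS1 in RNF2 of set A, below PKNOX2 (5.98). It fell to 3.88 for MEIS2 in RING1 of set A, below PKNOX1, PBX4 and PKNOX2, and to 3.25 for MEIS2 in RNF2 of set B, below PKNOX2 and PKNOX1. PBX3 kept its values of 7.43, 8.54 and 5.80 in RNF2 of set A, RING1 of set A and RNF2 of set B.

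The MEIS genes hold the widest and one of the narrowest patterns. MEIS2, a regulator of neural crest, palate and forebrain neuron development, lies on chromosome 15 (36889204 to 37101311, minus strand) and spans 212 kb. Its highest fold enrichment was 14 for RNF2 and 9.48 for RING1 in set A, and 6.40 for RNF2 and 4.77 for RING1 in set B. These values placed the gene within the highest 0.880%, 1.32%, 3.76% and 46.7% of the genes with a peak in each list. In the short RING1 list of set B the gene therefore stood near the middle.

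At MEIS2 both proteins formed a wide domain at each end of the gene, with little in between. The 5′ domain, joined from all lists, covered chr15:37087840-37115568, from −14.3 to 13.5 kb relative to the 5′ end, and was 27.7 kb wide. Its RNF2 peak of set A was 27.7 kb wide with a fold enrichment of 13.1, and its RING1 peak of set A was 19.1 kb wide with 9.48. In set B the RNF2 peak was 16.4 kb wide with a fold enrichment of 6.40, and the RING1 peak was 4.93 kb wide with 4.30. The RNF2 peak of set A was among the widest 0.344% of its list, whose median width was 973 bp. In each set the RING1 peak lay inside the RNF2 peak.

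The 3′ domain of MEIS2 covered chr15:36873639-36893303 and was 19.7 kb wide. The RNF2 peak of set A (fold enrichment 14) and the RING1 peak of set A (9.16, 16.2 kb) both crossed the annotated 3′ end of the gene. The peaks of set B lay wholly beyond it: RNF2 from 0.033 to 10.2 kb past the end (fold enrichment 6.12) and RING1 from 1.51 to 6.77 kb past it (4.77). The RING1 peak of set B at the 5′ side likewise lay before the gene, from −5.46 to −0.524 kb relative to the 5′ end, so RING1 of set B was called at both flanks of MEIS2 and not in its body. A further RING1 peak of set B (4.31) lay from −9.54 to −7.52 kb, within the domain and outside the 2 kb window. The 3′ domain holds the annotated start of the non-coding RNA gene LOC145845, which lay under a peak in all 4 lists, and the 5′ domain holds the start of LOC124903465, which lay under a peak in the other 3; both were named after their values were seen. Between the domains, peaks lay 42.4 to 69.0 kb after the 5′ end in set A only, with fold enrichments of 3.23 to 4.70. A smaller region, 202 to 204 kb after the 5′ end, was called for RNF2 in both sets (3.57 and 3.25) and for RING1 in set A (3.69).

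MEIS1, a partner of HOXA9 in blood stem cells and leukaemia and a factor of retinal and limb development, lies on chromosome 2 (66435125 to 66573869, plus strand) and spans 139 kb. Its highest fold enrichment was 11.5 for RNF2 and 8.24 for RING1 in set A and 7.13 for RNF2 in set B, within the highest 1.47%, 2.40% and 2.25% of the genes in these lists. It also had a domain at each end. The 5′ domain covered chr2:66425498-66449935, was 24.4 kb wide and reached 14.8 kb into the gene. RNF2 of set A covered it with peaks of 17.4 kb (fold enrichment 5.48) and 3.65 kb (4.15), and RNF2 of set B with a peak of 22.5 kb (6.07). RING1 of set A had peaks there of 2.40 kb (4.83) and 9.82 kb (4.20). A RING1 peak of set A (2.72 kb, 3.78) and an RNF2 peak of set B (0.556 kb, 3.38) lay in the same domain outside the window. RING1 of set B was not called there. With each list cut to its 659 most significant peaks, no set A peak of this domain was left in the window. The 22.5 kb RNF2 peak of set B stayed.

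The 3′ domain of MEIS1 covered chr2:66571800-66586512 and was 14.7 kb wide. Its peaks were 14.7 kb wide for RNF2 of set A (11.5), 12.1 kb for RING1 of set A (8.24) and 11.3 kb for RNF2 of set B (7.13). Those of set A crossed the 3′ end and reached 12.6 kb (RNF2) and 11.3 kb (RING1) past it. The RNF2 peak of set B lay wholly beyond the gene, 0.677 to 12.0 kb past its end. With the gene body alone, the highest RNF2 value of set B at MEIS1 was 6.07. A RING1 peak of set B (4.28, 2.32 kb) lay in the same domain, 6.22 to 8.54 kb past the 3′ end and thus outside the window. With it counted, MEIS1 as well as MEIS2 had peaks in all 4 lists. LINC01798, a non-coding RNA gene named after its values were seen, has its lower-coordinate end within this domain. At the 5′ end, the annotated start of the antisense RNA gene MEIS1-AS3, also named afterwards, lay under RNF2 of both sets and RING1 of set A. In each of the 3 lists with peaks at both ends of MEIS1, the 3′ domain had the higher fold enrichment. At MEIS2 the 3′ domain was higher for RNF2 of set A and RING1 of set B, and the 5′ domain for RING1 of set A and RNF2 of set B. Each value comes from 1 library, so no error can be put on these differences.

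Peaks at the 3′ end were the less usual feature. Of the 7 members with a strand in the promoter table, 5 had RNF2 of set A within 2 kb of the 5′ end and 2 within 2 kb of the 3′ end, against 55.9% and 10.3% of all 15842 protein-coding genes with a strand. RING1 of set A was at 5 of the 5′ and 2 of the 3′ ends, against 44.7% and 8.67%. RNF2 of set B was at 4 of the 5′ and 2 of the 3′ ends, against 20.3% and 4.80%, and RING1 of set B at 1 and 1, against 1.07% and 0.631%. All the 3′ ends with a peak were those of MEIS1 and MEIS2. Separate peaks at both ends were called at both genes for RNF2 of set A, RING1 of set A and RNF2 of set B, and at MEIS2 alone for RING1 of set B. Over all genes the shares were 4.6%, 3.33%, 1.04% and 0.271% in these lists.

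Separate RNF2 peaks at both ends of the gene in both sets were found at MEIS1 and MEIS2 and at 0.776% of the genes with a strand. Among the 2761 of these that are at least 100 kb long, 12 (0.435%) had them. The other 10, named here after their values were seen, were BSN, CDC42BPB, DMRT1, DNAH2, HLCS, MACROD1, NFIX, PSMD14, SCAPER and SLC25A21. RNF2 of set A covered 32.2 kb of the MEIS2 window and 23.6 kb of the MEIS1 window, against 51.6 kb at NFIX and 0.892 to 16.6 kb at the remaining 9. In that list MEIS2 was number 16 and MEIS1 number 36 of 12160 genes by covered length. With each list cut to its 659 most significant peaks, MEIS1 kept only its 3′ peak in RNF2 of set A.

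MEIS3, which promotes hindbrain fate in frog embryos, differed from its paralogs. On chromosome 19 (47403124 to 47422233, minus strand, 19.1 kb) it had RNF2 peaks of set A with fold enrichments of 3.24, 3.29 and 3.52 and widths of 326, 981 and 435 bp, and no other peak. Of the genes with RNF2 in set A, 85.9% had a highest fold enrichment at or above that of MEIS3. Its peaks had −log10 q values of 1.39 to 1.77, beside the lowest of the list at 1.01.

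**Figure D2:**
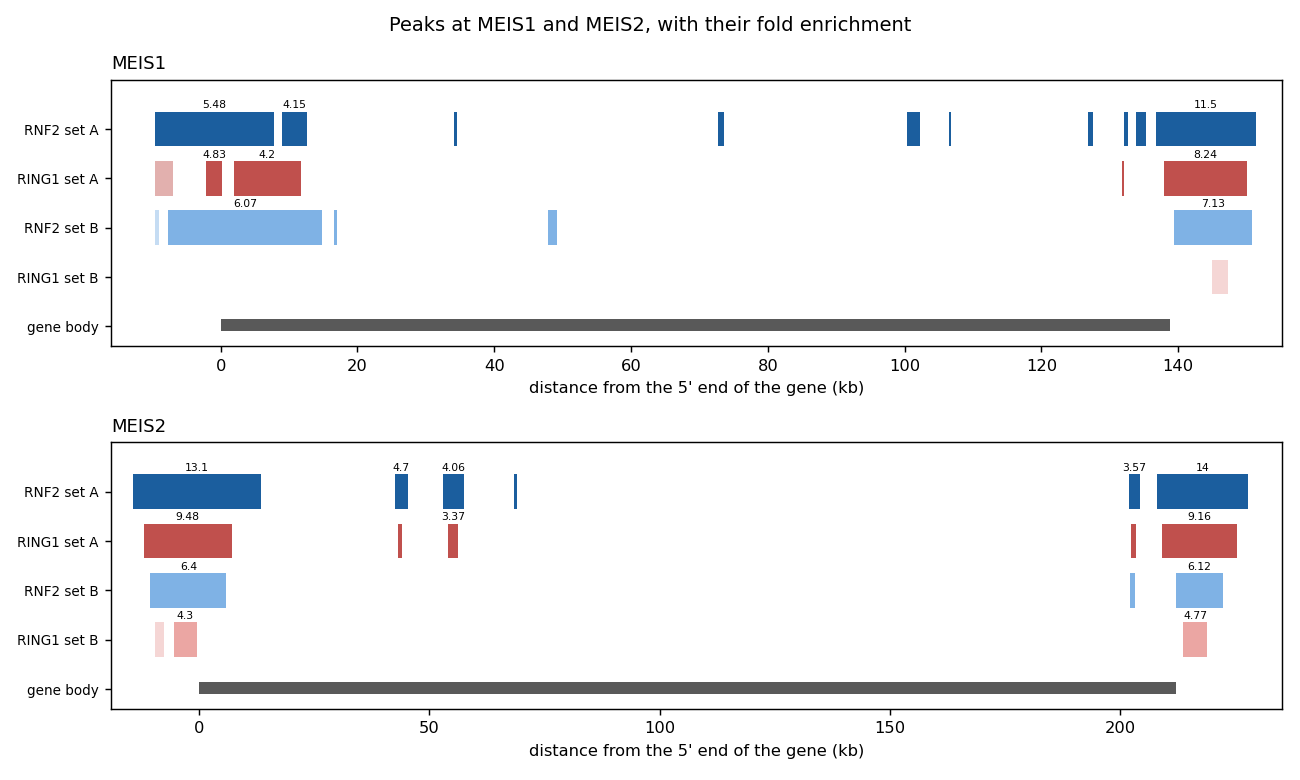
Peaks at MEIS1 and MEIS2 in the 4 lists, by distance from the annotated 5′ end in kb; the grey bar is the gene, and the fold enrichment stands above peaks of at least 2 kb in the window. Pale bars are peaks of the same domains outside the 2 kb window, among them the RING1 peak of set B past the 3′ end of MEIS1 (4.28); very narrow peaks are drawn at a minimum width. Wide peaks stand at both ends of both genes.

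The PBX genes carried peaks narrower than the end domains of MEIS1 and MEIS2, or none. PBX3, which in mice is needed for the brainstem control of breathing, lies on chromosome 9 (125747373 to 125967377, plus strand) and spans 220 kb. At its 5′ end the fold enrichment was 7.43 for RNF2 and 8.54 for RING1 in set A and 5.80 for RNF2 in set B. The peaks were 3.0, 1.01 and 0.813 kb wide. Those of RING1 and of RNF2 of set B ended before the annotated gene, at −0.5 and −0.572 kb. The joined region was chr9:125745865-125748872. It reached over the end of PBX3-DT, a non-coding RNA gene on the other strand named after its values were seen, whose start lay under the RNF2 and RING1 peaks of set A.

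The PBX3 peak was narrow for its fold enrichment in RING1 of set A and RNF2 of set B, but not among all peaks. By width it was within the widest 9.57% of RNF2 of set A, 33.1% of RING1 of set A and 48.2% of RNF2 of set B. Of the 176 RING1 peaks of set A with at least its fold enrichment, the median width was 14.6 kb, and 9.09% were no wider than the PBX3 peak. For RNF2 of set A the median of such peaks was 5.84 kb and 41.7% were no wider, and for RNF2 of set B it was 10.8 kb and 7.48%. In RNF2 of set B, the 4 end peaks of MEIS1 and MEIS2, with fold enrichments of 6.07 to 7.13, were 10.1 to 22.5 kb wide. The plot of width against fold enrichment shows PBX3 below the band in which the high peaks of RING1 of set A and RNF2 of set B lie. Inside PBX3, RNF2 and RING1 of set A also met 142 kb after the 5′ end (3.84 and 4.30).

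**Figure D3:**
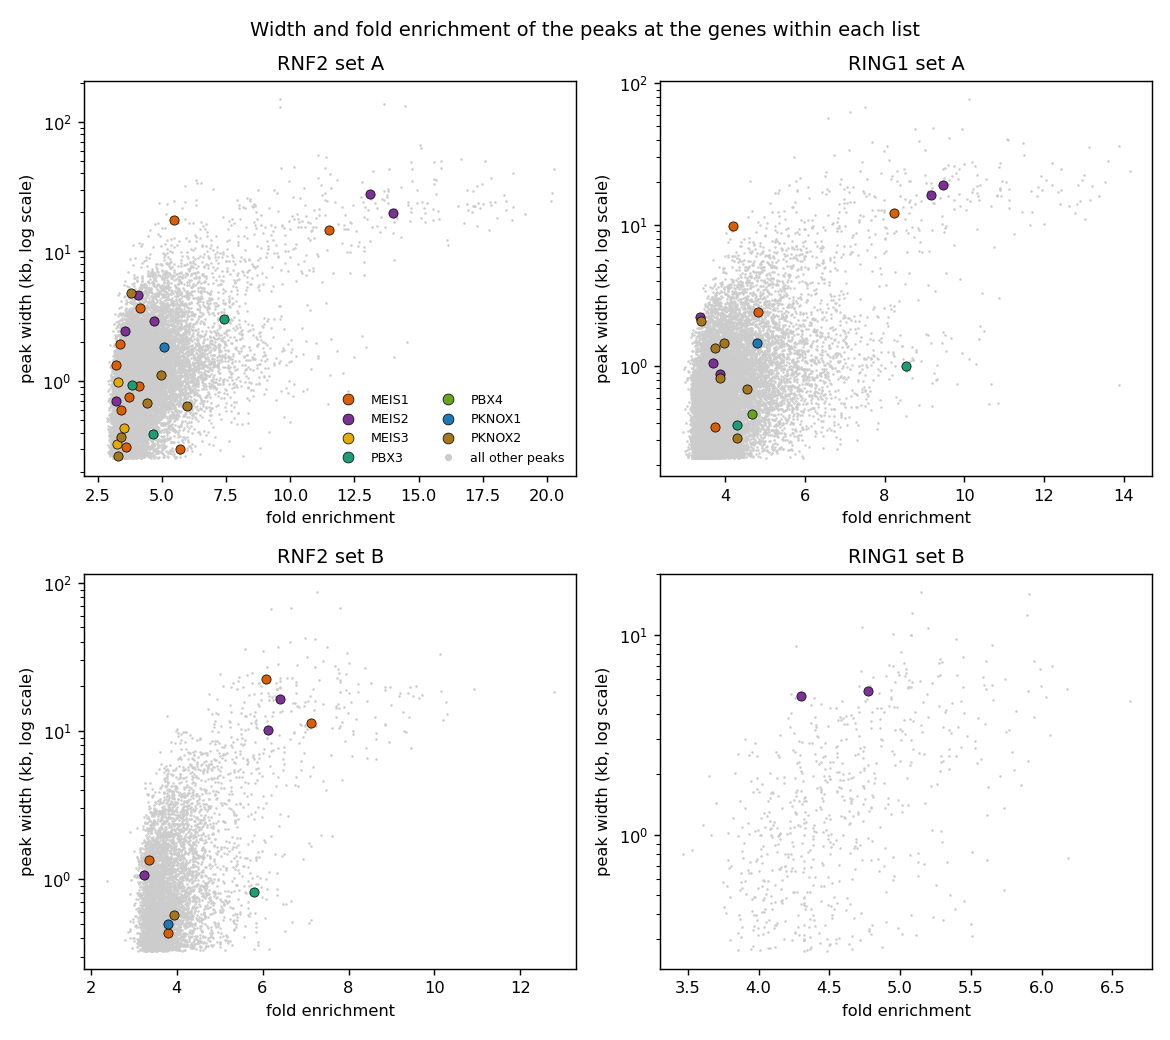
Peak width in kb (log scale) against fold enrichment for all peaks of each list (grey) and for the peaks at 7 of the 8 genes (coloured points); PBX2 has none. The end domains of MEIS1 and MEIS2 lie among the wide peaks, while the PBX3 peak reaches a fold enrichment of 8.54 at 1.01 kb in RING1 of set A.

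PBX4, known mainly from testis, lies on chromosome 19 (19561713 to 19618687, minus strand). It had a single RING1 peak of set A, 460 bp wide with a fold enrichment of 4.67, from −0.232 to 0.227 kb relative to the 5′ end, and no RNF2 peak. RING1 without RNF2 was the less common case: of the 19 RING1 peaks of set A at the 8 genes, 18 overlapped an RNF2 peak of that set (94.7%), against 82.1% of all RING1 peaks.

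PBX2, a broadly expressed member of the family, lies on chromosome 6 (32184733 to 32190202, minus strand) and had no peak in any list. Few of the surrounding genes had a peak. Of 47 protein-coding genes within 500 kb, 3 had an RNF2 peak of set A and 0 had a peak in the other lists. Of all protein-coding genes of chromosome 6, 58.6% had RNF2 and 47.4% RING1 of set A. For set B the shares were 21.5% for RNF2 and 1.62% for RING1, so 0 in that RING1 list says little. The nearest peak outside the PBX2 window lay 331 kb away (RNF2 of set A). PBX2 lies in the major histocompatibility complex, for which hg38 also holds alternative haplotype sequences, and set A lists 2 RNF2 and 3 RING1 peaks on alternative sequences of other chromosomes. The handling of multiply matching reads is a step not given in the sources used here. Its part in the absence of peaks at PBX2 was not tested.

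The PKNOX genes had peaks of moderate fold enrichment. PKNOX1 (PREP1), a broadly expressed partner of PBX that mouse embryos need to survive, lies on chromosome 21 (42974562 to 43033931, plus strand). Its 5′ end carried RNF2 at 5.08 (1.82 kb wide) and RING1 at 4.80 (1.47 kb) in set A, and RNF2 at 3.81 (0.499 kb) in set B. All 3 peaks covered the start itself, and no other peak lay in its 59.4 kb. In RNF2 of set B it stood at the middle of the genes with a peak.

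PKNOX2 (PREP2), a paralog with a more restricted expression, lies on chromosome 11 (125164751 to 125433389), and its positions are counted from the lower-coordinate end because the promoter table lacks it. Peaks of set A were spread over the gene. The region at that end was 4.92 kb wide, with fold enrichments of 3.79 for RNF2 and up to 3.74 for RING1. RNF2 and RING1 of set A also met 70, 98, 184 and 240 kb into the gene, with RNF2 at 4.42, 4.98, 3.42 and 5.98 and RING1 at 4.30, 3.98, 3.87 and 4.55. Of these, only the region about 98 kb in (chr11:125262391-125264137) was called in set B, for RNF2 at 3.95. The end of PKNOX2 thus carried no peak of set B, unlike the 5′ ends of MEIS1, MEIS2, PBX3 and PKNOX1.

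**Figure D4:**
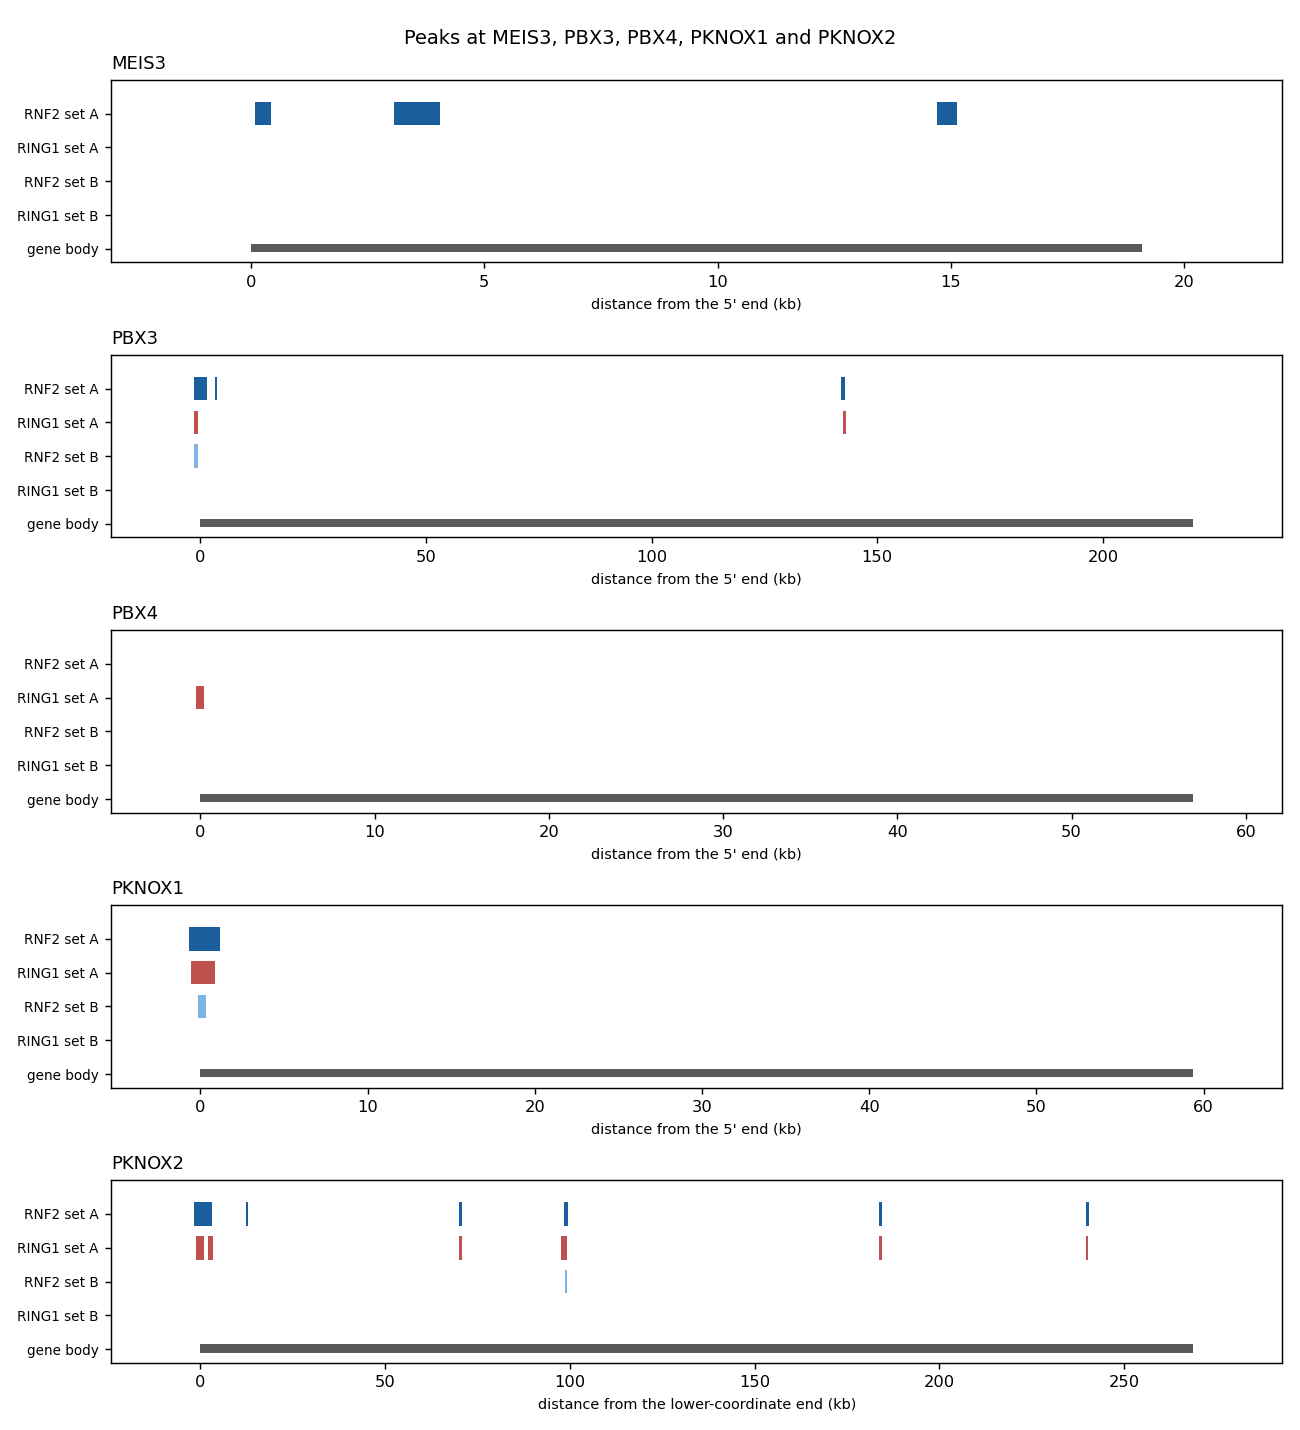
Peaks at MEIS3, PBX3, PBX4, PKNOX1 and PKNOX2 in the 4 lists, by distance in kb from the 5′ end (for PKNOX2 from the lower-coordinate end); each panel has its own scale, and very narrow peaks are drawn at a minimum width. PKNOX1 and PBX4 have peaks at the start alone, PKNOX2 has regions of set A along the gene, and none of the 5 genes has RING1 of set B.

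When touching peaks of the 4 lists were joined, the 8 genes held 31 regions. Of these, 7 lay at a 5′ end (the lower-coordinate end for PKNOX2), 2 at a 3′ end and 22 inside a gene. RNF2 was called in both sets at 4 of the 7, at both 3′ regions and at 2 of the 22 inside. The inside regions were narrow, with a median of 0.869 kb and a maximum of 4.58 kb, and 18 of them came from set A only, 11 of these from RNF2 alone. Set B alone gave 2 regions, both RNF2 inside MEIS1. Of the RNF2 peaks of set B at these genes, 8 of 10 overlapped an RNF2 peak of set A, a share of 80.0% beside 76.4% of all RNF2 peaks of set B. Of the RNF2 peaks of set A, 31.0% overlapped one of set B, beside 26.2% of all.

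RING1 was also called at 5 of the 6 members with RNF2 in set A, against 78.3% of all genes with RNF2, and at 1 of the 5 in set B, against 6.03%. Where both proteins were called, RNF2 covered more of the gene than RING1. In set A this held at all 5 genes with both, MEIS2 (32.2 and 18.2 kb), MEIS1 (23.6 and 15.2 kb), PKNOX2 (7.87 and 6.70 kb), PBX3 (4.34 and 1.39 kb) and PKNOX1 (1.82 and 1.47 kb). The same was true of 80.6% of all genes with both, and the lists as a whole covered 28.2 Mb for RNF2 and 17.4 Mb for RING1. In set B it held at MEIS2 (10.9 and 1.97 kb), as at 95.4% of genes with both.

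The authors' consolidated file, which lists 4255 regions without values, had 8 regions at 5 of the 8 genes, where 22.8% of all protein-coding genes had one. These were both end domains of MEIS1 and of MEIS2, the small region near the 3′ end of MEIS2, the 5′ regions of PBX3 and PKNOX1 and the inside region of PKNOX2. They are the same 8 regions that had RNF2 in both sets. Their ends are also those of the regions joined here from the peak lists, apart from how the first base is counted. The file therefore appears to be derived from these lists, and the match is no separate evidence. MEIS3, PBX2 and PBX4 had no region in the file.

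Among the HOX partners of these genes, RNF2 of both sets and RING1 of set A were called at each of the 39 HOX cluster genes, and RING1 of set B at 22. Neighbouring HOX genes can share a peak, so they do not count separately. HOXD8, HOXD9, HOXD10, HOXD11, HOXD12 and HOXD13 led this group with the same RNF2 values (14.5 and 7.81 in sets A and B). Of 11 other TALE homeobox genes, 9 had RNF2 and 9 RING1 in set A, and 7 had RNF2 and 4 RING1 in set B. Over all protein-coding genes, 60.7% had RNF2 and 50.5% RING1 in set A, and 25.2% had RNF2 and 1.58% RING1 in set B. IRX5 (RNF2 at 15.2 and 9.40), IRX1 (9.0 and 6.64), both patterning genes of the Iroquois group, and MKX (8.85 and 5.84), a tendon factor gene, led these other TALE genes. MEIS2 (14 and 6.40) was below IRX5 in both RNF2 lists, and MEIS1 (11.5 and 7.13) above MKX in both. The median covered length for RNF2 of set A was 6.10 kb at the members with a peak, 7.79 kb at HOX genes, 7.62 kb at the other TALE genes and 1.29 kb at all genes with a peak. For RING1 of set A it was 4.08, 7.18, 7.48 and 0.889 kb in the same order of groups. For RNF2 of set B it was 0.813 kb at the members, below the 0.906 kb of all genes, and 7.18 and 8.13 kb at the HOX and other TALE genes. Covered length counts only bases inside the window of each gene, and the windows differ in length. At genes of at least 100 kb with a peak, the medians were 1.66, 0.984 and 1.04 kb in these lists. No test was made of these differences.

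**Figure D5:**
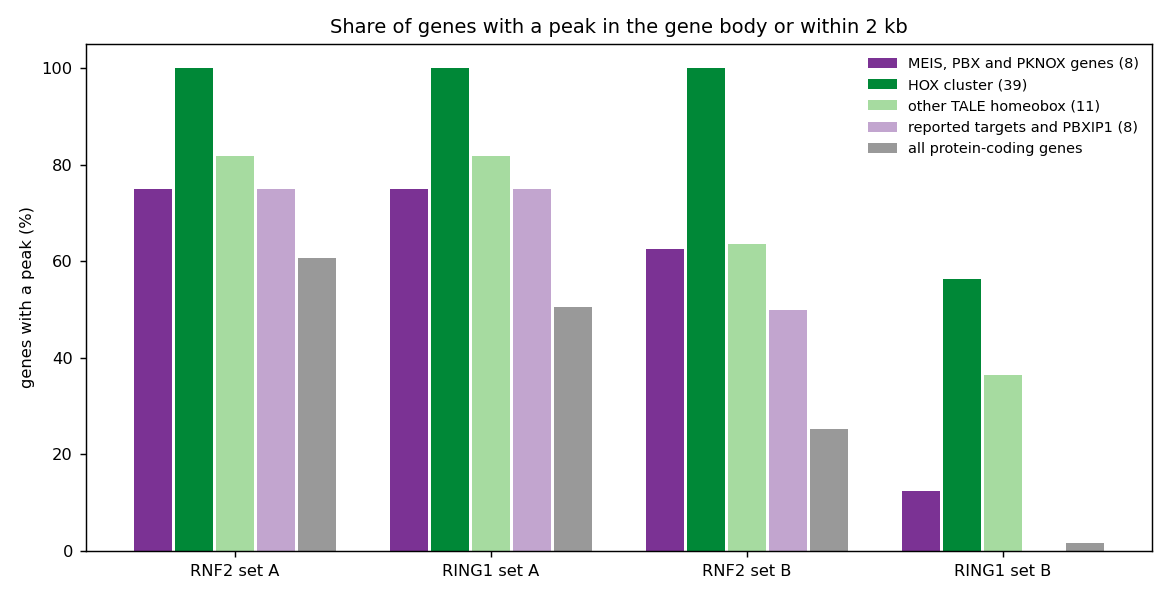
Share of genes with a peak in the gene body or within 2 kb, in percent, for the 8 MEIS, PBX and PKNOX genes, 3 other gene lists and all 20037 protein-coding genes, per peak list. The bars of the 8 genes stand at 75.0%, 75.0%, 62.5% and 12.5%, below the HOX cluster in each list.

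Among 7 genes reported as MEIS or PBX targets, mainly in mice, and PBXIP1, whose protein binds PBX, 6 had RNF2 and 6 RING1 in set A, and 4 had RNF2 and 0 RING1 in set B. The shares over all protein-coding genes were 60.7%, 50.5%, 25.2% and 1.58% in the same order. PAX6, an eye and forebrain factor gene, had RNF2 at 11.2 and 7.98 in sets A and B, and HOXB2, a hindbrain HOX gene, had 9.61 and 5.80. CCND1, the gene of cyclin D1, had 6.62 and 4.55. HOXB1, named after its values were seen, had 9.61 and 3.37. HOXB1 and HOXB2 are also counted among the HOX genes. EPHA8 and TH, named afterwards too, had no peak in any list.

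For the 5 genes with RNF2 in both sets, the protein-coding genes with the most similar set of 4 highest fold enrichments were sought by Euclidean distance on the log2 scale, with a missing peak set to 1. Over these 4 lists, the nearest to MEIS2 were BCOR (distance 0.10), WT1 (0.107) and FOXB2 (0.120), and 20 genes lay within 0.25. Those nearest to MEIS1 included CBX8 (0.204) and FOXB1 (0.235), with 3 genes within 0.25. The nearest to PBX3 were CENPX (0.109), TINF2 (0.147) and MAN1B1 (0.161), with 26 genes within 0.25. PKNOX1 and PKNOX2 had common patterns, with 709 and 493 genes within 0.25. ZNF584, NOL3 and LAMB1 were nearest to PKNOX1, and BBOF1, UBTF and OAT nearest to PKNOX2. PKNOX1 and PKNOX2 lay 0.253 from each other, the smallest distance between any of the 8 genes, and MEIS1 was nearer to PBX3 (0.698) than to MEIS2 (2.29), chiefly because MEIS1 had no RING1 peak of set B inside its window.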

How the data were processed

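CUT&RUN libraries were made from H9 neural progenitor cells with a commercial kit, per the labels' protocols. Build hg38 and the tools MACS2 2.2.9.1, bedtools 2.30.0, BWA 0.7.17, Picard 2.8.1, deepTools 3.5.2 and SAMtools 1.9 are listed in the submitters' processing notes, which assign them no step. The deposited peak lists hold, per peak, the authors' fold enrichment (a ratio over background), and the −log10 of a q-value; further columns were not used. Each list names 1 antibody and 1 number, and its peaks are treated as those of 1 library. The control behind the fold enrichment, if any, is among the details not given in the sources used here. A consolidated file the authors deposited holds 3 columns of coordinates and no measurement.

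Peaks of chromosomes 1 to 22, X and Y were assigned to RefSeq genes (GRCh38.p14) by overlap of at least 1 bp with the gene body and 2 kb on either side. Strand came from the RefSeq promoter table. A gene's value is the highest fold enrichment among its peaks. Of the genes with strand, the 5′ and 3′ ends are the annotated gene ends. The planned comparison of protein sequences was not made.

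The 8 genes, the other gene lists and the rule for named genes were chosen with earlier results of these data known, so no count is independent evidence. Named by rule are the 8 genes, the 3 leading genes of each other list by the smaller RNF2 fold enrichment of both sets (with ties), and the 3 nearest genes by pattern, of which 1 is not reported here; no other protein-coding gene end lay under a peak of the 8 genes. Alternatives changed the q threshold, list length, window and overlap, and left out each set. Peak assignment was tested on simulated data. Python 3.11.15, numpy 2.4.6, pandas 2.3.3 and matplotlib 3.10.9 were used.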

Additional observations from a re-analysis of the deposited data

How the results depend on the processing

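Counts of the 8 genes with a peak were recomputed 60 times over all alternatives, and 39 stayed within 1.5 times the value given. The shares over all protein-coding genes were not recomputed. These counts therefore show which of the 8 genes stay, and not whether they are many or few. With a −log10 q of at least 5, RNF2 of set B was at 3 genes, RING1 of set A at 3 and RING1 of set B at 0; RNF2 in both sets was at 3, all 4 lists at 0, and both antibodies of set A at 3 and both of set B at 0. That threshold leaves 7 RING1 peaks in set B. With each list cut to its 659 most significant peaks, RNF2 of set A was at 3, RNF2 of set B at 3, RING1 of set A at 3, RNF2 in both sets at 3 and both antibodies of set A at 3. In each of these lists the 3 were MEIS1, MEIS2 and PBX3. With the gene body alone, or with at least 50% of the peak inside the window, RING1 of set B, all 4 lists and both antibodies of set B each fell to 0, since the RING1 peaks of set B at MEIS2 lie mostly beyond its ends. With peaks of the same region outside the window counted, a setting chosen after seeing the data, RING1 of set B and all 4 lists rose to 2. With each set left out, genes in all remaining lists numbered 1 to 5, and genes with RNF2 in all remaining sets 5 to 6. Values moved too. Of 18 highest fold enrichments, 8 were lost at the q threshold and 8 with equal lists, and 7 moved with at least 50% of the peak inside the window. Under that overlap MEIS1 was at 5.71 in RNF2 of set A and 4.83 in RING1 of set A, and MEIS2 at 3.88 in RING1 of set A and 3.25 in RNF2 of set B. The length covered at MEIS2 was then 4173 bp in RING1 of set A and 1066 bp in RNF2 of set B. With equal lists, the MEIS1 length was 4070 bp in RNF2 of set A and 2763 bp in RING1 of set A. Both lengths are those of the 3′ peak alone, so the 5′ domain of MEIS1 was lost in set A. It stayed in RNF2 of set B. At the q threshold the 5′ domain was lost in RING1 of set A too. No paired analysis was possible because the counts come from no test; RNF2 and RING1 were compared within each set. Depth is unknown and limits what a missing peak in set B can show.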

Other observations

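The surroundings of the 8 genes differed. MEIS1 had no other protein-coding gene within 500 kb, and MEIS2 had 1. MEIS3, PBX4 and PKNOX2 had more protein-coding neighbours within that distance, 23, 27 and 25. Of these, 16, 15 and 19 had an RNF2 peak of set A, shares on either side of the 60.7% of all genes. PBX3 had 3 such neighbours, all with RNF2 of set A, and PKNOX1 had 13, of which 6 had it. Beyond its window, MEIS2 had 1 RNF2 peak of set A within 500 kb, 388 kb away.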
